A study of Mus musculus with 9 samples.

Results

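MHC class II presentation genes were followed in the irradiated submandibular salivary gland of the mouse. The set was taken by name from the deposited table of read counts and holds 7 of its 54532 genes: H2-Aa, H2-Ab1, H2-Eb1, Cd74, H2-DMa, H2-DMb1 and Ciita. All 7 had counts in all 9 libraries and all 7 passed the filter on low counts, as did 15224 genes in the whole table. The measurements are bulk RNA sequencing of total RNA from sections of submandibular gland. The mice were wild type (WT) and had received 10 Gy of radiation. The glands were taken 30, 60 or 90 days after it, with 3 samples at each time. All groups therefore share the genotype and the dose, and every comparison is between irradiated time points. Non-irradiated glands, which the labels mention, were not analysed here. The labels give no strain, age, sex or batch, and time since radiation cannot be told apart from the age of the mice. They do not say that samples of a group came from separate animals, so p-values measure only the spread between these samples, which may be technical.

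MHC class II molecules carry peptides from engulfed or recycled proteins to the cell surface, where CD4+ T cells read them. H2-Aa and H2-Ab1 encode the alpha and beta chains of the I-A molecule, and H2-Eb1 encodes the beta chain of I-E. Cd74, the invariant chain, folds with new class II molecules, blocks the groove and guides them to the endosome. There the H2-DM molecule, made from H2-DMa and H2-DMb1, takes out the last fragment of Cd74 and lets peptides in. Ciita, the class II transactivator, binds no DNA itself. It is recruited by factors that sit on a conserved X box and Y box before these genes, and interferon gamma induces it in many cells. Dendritic cells, macrophages and B cells are the main carriers of class II. In salivary gland, epithelial cells can also make it during inflammation.

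The X box and Y box letters are shown because Ciita acts on class II genes through these boxes. RefSeq promoter entries (build GRCm38.p6) were found for 4 of the 7 members, H2-Aa, H2-Eb1, H2-DMa and H2-DMb1, and the 250 bases before the start were searched on both strands. The Y box letters GATTGG occur in 14.6% of 32851 promoters, and GNAACT, letters of the X box core chosen after these promoters had been seen, in 37.3%. A pair with GNAACT first and GATTGG 5 to 40 bases after it occurs in 0.499% of promoters. The pair was also chosen after these promoters had been seen, so its presence in them is not a test. H2-Aa, H2-Eb1 and H2-DMb1 hold such a pair, as does the relative H2-Eb2, while the relatives H2-DMb2, H2-Oa and H2-Ob do not. H2-Oa and H2-Ob do hold AGCAAC, X box letters chosen before the promoters were seen, ahead of GATTGG on the same strand. The 2 stand 77 and 44 bases before the start in H2-Oa, and 88 and 58 in H2-Ob. In the sequences, given 5′ to 3′ on the strand of the gene, capitals mark GNAACT and GATTGG.
H2-Aa: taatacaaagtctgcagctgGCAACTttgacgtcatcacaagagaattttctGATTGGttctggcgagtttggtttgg
H2-Eb1: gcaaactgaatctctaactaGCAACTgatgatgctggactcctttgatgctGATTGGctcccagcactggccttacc
H2-Eb2: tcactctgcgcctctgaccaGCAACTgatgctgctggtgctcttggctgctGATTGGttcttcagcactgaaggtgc
The H2-Aa stretch is chr17:34287847-34287924 on the minus strand, that of H2-Eb1 is chr17:34305756-34305832 on the plus strand, and that of H2-Eb2 is chr17:34325523-34325599 on the plus strand. The gap between the capitals is 26 bases in H2-Aa and 25 in both H2-Eb1 and H2-Eb2. In H2-DMb1 the gap is 26 bases, and that stretch lies in what GENCODE annotates as untranslated exon, so it is not printed. The 2 H2-DMa entries hold no pair, and 1 of them has GATTGG alone, 199 bases before its start. Other letters searched were AGCAAC (12.2% of promoters), whose last letters can be the first of GNAACT and which was found in H2-Eb1 and in the relatives H2-Eb2, H2-Oa and H2-Ob, ACAGATG (4.15%), found in H2-Aa and H2-Oa, the interferon gamma activated site letters TTCNNNGAA (7.02%) and the E box CACGTG (6.02%), each found in none of these 4 members' promoters. The relative H2-DMb2 has TTCNNNGAA. These matches are letters in a window, and no binding was measured.

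The deposited counts give each gene a number of reads per library. Library totals ran from 16541396 to 26065856 counts, and those of 30 days were all below those of 60 and 90 days. CPM is the depth-scaled read count, in which library totals are adjusted by TMM, a trimmed mean of log ratios. On this scale a floor of 3 counts runs from 0.101 CPM in 90-day sample 1 to 0.213 CPM in 30-day sample 1. The secretory gene Mucl2 took 31.4% to 42.8% of counts. All 15 gland markers listed, among them the acinar genes Aqp5 and Bhlha15, had counts in every library. The members together took 0.0344% to 0.133% of counts.

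**Figure D1:**
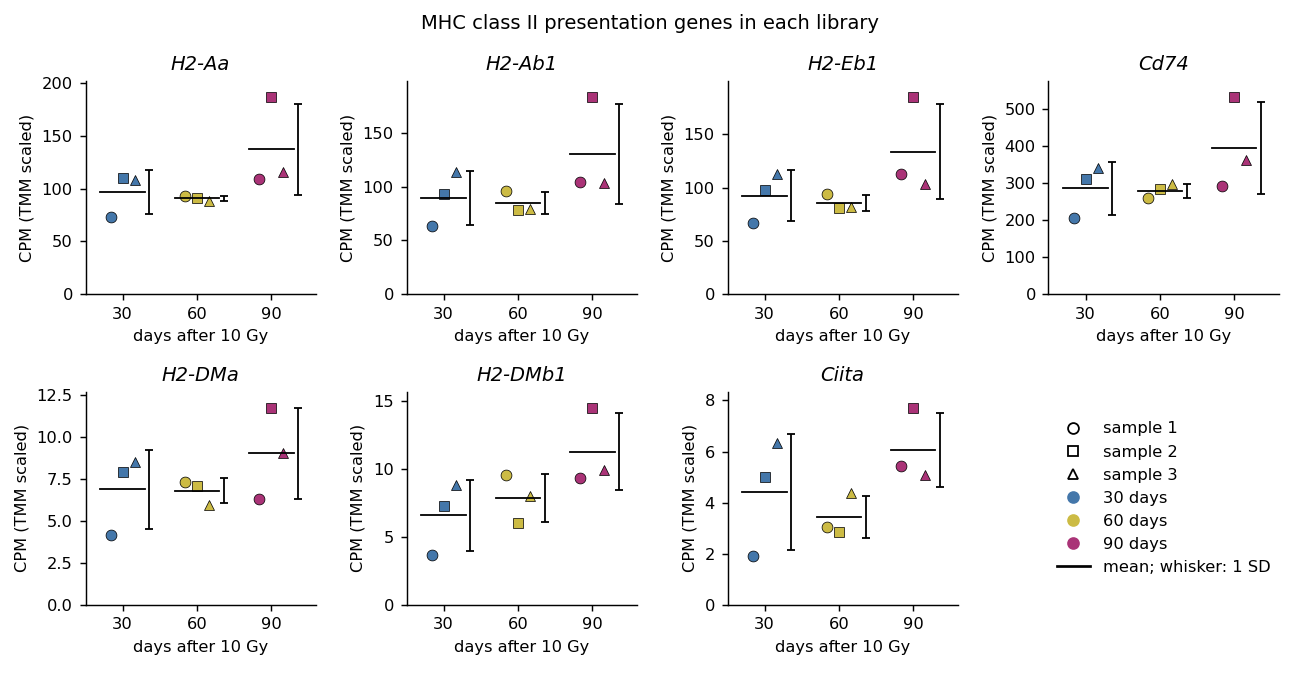
CPM of each of the 7 genes (vertical axes, linear from 0) in the 9 libraries against days after 10 Gy; circles, squares and triangles are samples 1, 2 and 3, the bar is the mean and the whisker 1 SD. In every panel the highest point is 90-day sample 2 and the lowest is 30-day sample 1; Cd74 runs from 205 to 532 CPM.

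The 3 chains of the surface molecules followed one another from library to library. H2-Aa (ENSMUSG00000036594, chromosome 17, 34282744 to 34287823, minus strand, GRCm38) measured 72.9, 110 and 108 CPM in samples 1, 2 and 3 at 30 days, 92.7, 90.6 and 88.6 CPM at 60 days, and 109, 187 and 116 CPM at 90 days. Its 90-day values were all above its 60-day values, but they overlapped those of 30 days. The means were 97.0 ± 20.9, 90.6 ± 2.02 and 137 ± 43.1 CPM at the successive times (SD, n = 3 each).

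H2-Ab1 (ENSMUSG00000073421, chromosome 17, 34257689 to 34269419, plus strand) measured 63.3, 93.0 and 114 CPM at 30 days, 96.3, 78.7 and 79.7 CPM at 60 days, and 104, 184 and 103 CPM at 90 days. H2-Eb1 (ENSMUSG00000060586, chromosome 17, 34305867 to 34316674, plus strand) measured 66.4, 97.9 and 113 CPM, then 94.3, 81.2 and 81.6 CPM, then 113, 185 and 104 CPM. In both beta chain genes, as in H2-Aa, 90-day sample 2 stood apart from its group and the 60-day values lay below all the 90-day values. The SDs at 90 days were 46.3 CPM for H2-Ab1 and 44.7 CPM for H2-Eb1, against 9.86 and 7.45 CPM at 60 days (n = 3 each).

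Cd74, the invariant chain (ENSMUSG00000024610, chromosome 18, 60803848 to 60812652, plus strand), had the most counts of the members, 2891 to 15498 per library. It measured 205, 311 and 340 CPM at 30 days, 259, 282 and 296 CPM at 60 days, and 291, 532 and 361 CPM at 90 days. The 90-day and 60-day values overlapped, because 90-day sample 1 lay below 60-day sample 3. The means were 285 ± 71.2, 279 ± 19.0 and 395 ± 124 CPM (SD, n = 3 each).

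The peptide exchange genes rested on fewer counts, 52 to 423 per library. H2-DMa (ENSMUSG00000037649, chromosome 17, 34119541 to 34139101, plus strand) measured 4.18, 7.90 and 8.52 CPM at 30 days, 7.33, 7.10 and 5.96 CPM at 60 days, and 6.30, 11.7 and 9.03 CPM at 90 days. H2-DMb1 (ENSMUSG00000079547, chromosome 17, 34153072 to 34160230, plus strand) measured 3.68, 7.25 and 8.81 CPM, then 9.53, 6.01 and 8.0 CPM, then 9.36, 14.5 and 9.93 CPM. H2-DMb1 was the only member whose 90-day values all lay above its 30-day values, and H2-DMa overlapped between all pairs of times. Reads of these genes are less certain than those of the other members. Of the 50-base stretches in H2-DMb1 transcripts, 22.7% also occur in H2-DMb2, and 8.43% of those of H2-DMa occur in Brd2, whose exons overlap 10.4% of H2-DMa exon bases. For the other 5 members the share ran from 0 (H2-Ab1, H2-Eb1 and Cd74) to 1.46% (Ciita, with Dexi). Use of strand in counting is not given in the sources used here.

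Ciita (ENSMUSG00000022504, chromosome 16, 10480059 to 10528418, plus strand) had the fewest counts, 27 to 225 per library. It measured 1.91, 4.99 and 6.33 CPM at 30 days, 3.06, 2.85 and 4.38 CPM at 60 days, and 5.42, 7.72 and 5.07 CPM at 90 days. Its 60-day values were all below its 90-day values. The 30-day group was widely spread, with a mean of 4.41 ± 2.26 CPM (SD, n = 3).

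Levels of different members were compared per length of the principal transcript, as CPM per kilobase. The order of the means over 9 libraries was Cd74 at 227, H2-Aa at 96.0, H2-Ab1 at 84.0, H2-Eb1 at 62.3, H2-DMb1 at 6.10, H2-DMa at 4.56 and Ciita at 0.772 CPM per kilobase. This order was the same in 9 of 9 libraries. With the union of all annotated exons as the length, Cd74 stayed first and H2-DMb1, H2-DMa and Ciita stayed last, in 9 of 9 libraries. The order of the 3 chains was then H2-Eb1, H2-Ab1 and H2-Aa, so it depends on the gene model.

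Ratios between members of a complex varied less than the levels. Per kilobase of principal transcript, H2-Ab1 stood to its partner H2-Aa at 0.786 to 0.979 (median 0.837), which is a 1.25-fold range over the 9 libraries. Cd74 stood to H2-Aa at 2.14 to 2.67, also a 1.25-fold range, and H2-Eb1 to H2-Aa at 0.601 to 0.708, a 1.18-fold range. The level of H2-Aa itself spanned 2.56-fold. The ratio of H2-DMb1 to its partner H2-DMa was wider, at 1.00 to 1.76. The ratio of H2-Aa to the regulator Ciita was the widest of the 6 ratios formed, 90.9 to 203, a 2.23-fold range.

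From 30 to 60 days no member passed the test. The log2 fold changes, here and below with the SE of the fit, were -0.10 ± 0.21 for H2-Aa, -0.08 ± 0.28 for H2-Ab1, -0.11 ± 0.25 for H2-Eb1 and -0.03 ± 0.22 for Cd74. For H2-DMa it was -0.02 ± 0.26, for H2-DMb1 0.24 ± 0.28 and for Ciita -0.37 ± 0.34, the widest of the 7. The adjusted p-values (edgeR quasi-likelihood test, Benjamini-Hochberg over 15224 genes) ran from 0.715 for Ciita to 0.985 for H2-DMa. Thus 0 of 7 were called, with an unadjusted p under 0.05 also in 0 of 7 and with 0 calls by DESeq2 and by limma-voom. Over all genes 1.56% were called in this contrast. The median over the members was -0.08, beside -0.00 over all genes tested. The groups overlapped in 7 of 7 members. Over all genes 8.67% had 60-day values all above the 30-day values, and the share with values all below is not given here. The intervals leave room for sizeable differences: for Cd74 the 95% interval was -0.53 to 0.46 and for Ciita -1.10 to 0.35 on the log2 scale.

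From 60 to 90 days all 7 log2 fold changes were positive and none passed the test. H2-Aa had 0.60 ± 0.21 (SE; adjusted p = 0.327, edgeR), H2-Ab1 0.62 ± 0.28 (adjusted p = 0.473) and H2-Eb1 0.64 ± 0.25 (adjusted p = 0.409). These correspond to 1.52-, 1.54- and 1.56-fold higher fitted levels at 90 days. Cd74 had 0.50 ± 0.22 (adjusted p = 0.459), close to the chains it folds with. H2-DMa had 0.41 ± 0.25, H2-DMb1 0.52 ± 0.27 and Ciita 0.83 ± 0.33 (adjusted p = 0.585, 0.509 and 0.375). By edgeR 0 of 7 were called, beside 0.256% of all genes. An unadjusted p under 0.05 was found in 4 of 7: H2-Aa, H2-Eb1, Cd74 and Ciita. The 0.256% refers to adjusted p-values. The share of all genes with an unadjusted p under 0.05 is not given here or for the other contrasts. DESeq2 and limma-voom also called 0. The median was 0.60, beside 0.00 over all genes. In 4 members, H2-Aa, H2-Ab1, H2-Eb1 and Ciita, every 90-day value was above every 60-day value. Over all genes 8.26% had 90-day values all above the 60-day values. The labels' 3 samples a group limit these tests, and the 95% interval for H2-Aa was 0.14 to 1.06.

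Over the whole interval, from 30 to 90 days, all 7 log2 fold changes were again positive and again none passed. H2-DMb1 had the widest difference, 0.77 ± 0.28 (SE; adjusted p = 0.164, edgeR; 95% interval 0.18 to 1.36). H2-Aa had 0.50 ± 0.21, H2-Ab1 0.54 ± 0.28 and H2-Eb1 0.53 ± 0.25 (adjusted p = 0.252, 0.386 and 0.324). Cd74, with 0.47 ± 0.22, lay beside the chains, and H2-DMa had 0.38 ± 0.25 and Ciita 0.45 ± 0.33 (adjusted p = 0.327, 0.486 and 0.543). By edgeR 0 of 7 were called, beside 3.57% of all genes, and H2-Aa and H2-DMb1 had an unadjusted p under 0.05. DESeq2 and limma-voom called 0. The median was 0.50, beside 0.01 over all genes. Groups did not overlap in 1 of 7 members, H2-DMb1, and over all genes 11.4% had 90-day values all above the 30-day values. This contrast shares the 90-day libraries with the one before it and the 30-day libraries with the first.

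**Figure D2:**
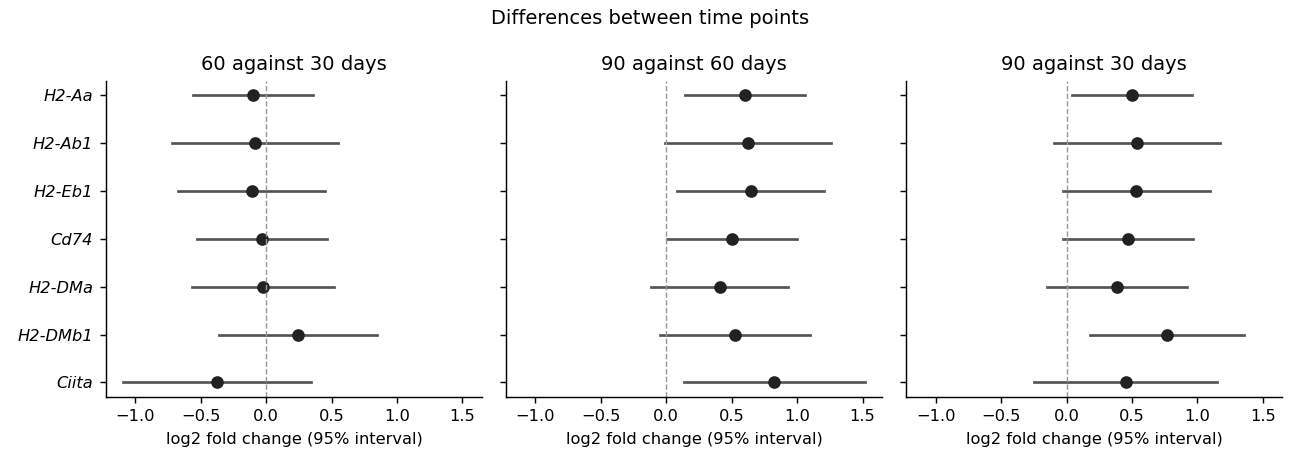
Log2 fold change of each of the 7 genes in the 3 pairwise contrasts; points are fitted values, lines are 95% intervals and the dashed line is 0. In the contrast of 60 against 30 days every interval includes 0, and for H2-Aa at 90 against 60 days it runs from 0.14 to 1.06.

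The test of any difference among the 3 times gave adjusted p-values (edgeR) from 0.233 for H2-Aa to 0.539 for H2-DMa. It called 0 of 7 members, with an unadjusted p under 0.05 in 2, beside 3.29% of all genes called. DESeq2's likelihood ratio test called 1 member, H2-Aa (adjusted p = 0.0393), beside 5.79% of the genes it gave an adjusted p, and limma-voom called 0. When 60 days was set against the average of the other times, 0 of 7 members were called by edgeR, 0 had an unadjusted p under 0.05, and 0.256% of all genes were called. Several calls changed with the filter on low counts. With every gene that has a count kept in the fit, H2-Aa, Cd74 and Ciita were called at 90 against 60 days, and H2-Aa, Cd74 and H2-DMb1 at 90 against 30 days and for any difference. In that fit of 27001 genes 1.31%, 3.87% and 4.42% of all genes were called in these comparisons. For H2-Aa the adjusted p-values (edgeR) were then 0.000186 and 0.000975, with log2 fold changes of 0.59 and 0.51. With the filter these log2 fold changes were 0.60 and 0.50. Why the p-values differed between the fits was not tested.

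The spread of all 7 members followed the same libraries. In each member 90-day sample 2 was the highest and 30-day sample 1 the lowest of 9. Over all genes tested, 13.3% were highest in that 90-day library, 18.2% were lowest in that 30-day library and 5.18% were both. The highest library stood over the lowest by 2.56-fold in H2-Aa and by 4.04-fold in Ciita, the ends of the range over members. Within its group, 90-day sample 2 stood over the mean of the other 90-day libraries by 1.47-fold (Ciita) to 1.77-fold (H2-Ab1). The 30-day sample 1 stood at 0.338 (Ciita) to 0.668 (H2-Aa) of the mean of the other 30-day libraries. The scaling factors of these libraries were also at the ends, 1.19 for 90-day sample 2 and 0.824 for 30-day sample 1. The part of these factors in the result was not tested beyond the other scalings. With library totals alone the members' medians were 0.79 at 90 against 60 days and 0.72 at 90 against 30 days, where the medians of all genes were 0.17 and 0.24.

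The values moved when these libraries were left out. Without 90-day sample 2 the median log2 fold change of the members was 0.29 at 90 against 60 days and 0.21 at 90 against 30 days. Without 30-day sample 1 the median was -0.27 at 60 against 30 days, 0.60 at 90 against 60 days and 0.33 at 90 against 30 days. With both left out, an alternative chosen after seeing the data, the median at 90 against 30 days was 0.01, and 5 of 7 members stayed positive. For Cd74 the mean of the remaining 90-day libraries was 326 CPM and that of the remaining 30-day libraries 325 CPM. For H2-Aa the corresponding means were 112 and 109 CPM, and for H2-DMb1 9.65 and 8.03 CPM. The median at 90 against 60 days stayed at 0.29, with 7 of 7 positive, 0 called (edgeR) and an unadjusted p under 0.05 in 4.

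**Figure D3:**
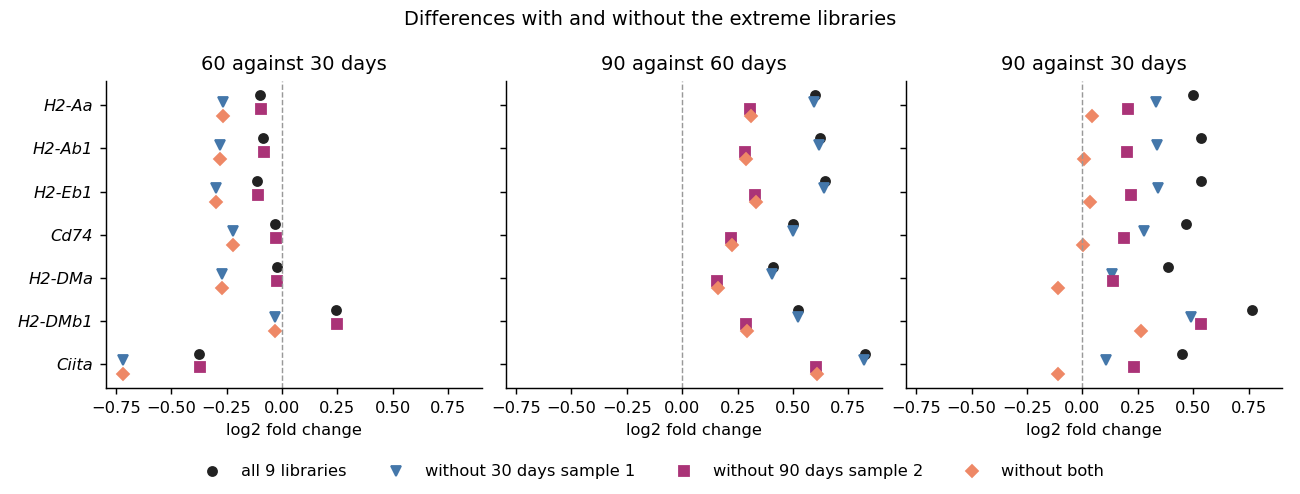
Log2 fold change of each of the 7 genes in the 3 pairwise contrasts from all 9 libraries and without 30-day sample 1, without 90-day sample 2, or without both; the dashed line is 0. At 90 against 30 days the values without both lie near 0, with a median of 0.01 against 0.50 with all libraries.

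The members varied together across libraries. Over the 21 pairs of members, Pearson's r of log2 CPM across the 9 libraries ran from 0.793 to 0.995, with a median of 0.883. On deviations from the mean of each time point it ran from 0.749 to 0.994, with a median of 0.870, so the likeness lay largely within the time points. The points share their libraries, and the same extreme libraries carry much of each r.

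The genes whose pattern was most like the mean of the members, among 13011 genes with a mean of at least 1 CPM, were Zmynd15 (r = 0.969 over 9 libraries), Evl (0.963), Fstl1 (0.962), Epsti1 (0.960) and Lrrc75a (0.959). H2-K1, an MHC class I heavy chain, Dnase1l3 and the immunoproteasome subunit Psmb8 each had r = 0.957. The interferon-induced Oasl2 had 0.956 and the chemokine Ccl8 0.951. In all 79 genes, 0.607% of those compared, had r above 0.9. H2-K1 measured 406, 533 and 588 CPM at 30 days, 549, 474 and 523 CPM at 60 days, and 664, 988 and 694 CPM at 90 days. Unlike the members it passed the test at 90 against 30 days (0.62 ± 0.16 on the log2 scale; edgeR adjusted p = 0.0368), and its 90-day values were all above the others. Whether H2-K1 differed from the members was not tested. The 10 genes all had their highest value in 90-day sample 2 and their lowest in 30-day sample 1. They were chosen for likeness to the members, which have the same extremes, so this is not a separate result. With library totals alone 7 of the 10 remained among the first 10, and with a prior count of 0.5 in place of 2, 9 remained.

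Relatives of the members in the class II region were nearly silent. H2-Ea-ps, the locus of the I-E alpha chain, which is not expressed in several mouse haplotypes, had 0 counts in 9 of 9 libraries. By the floor of 3 counts that allows at most 0.101 to 0.213 CPM. Its partner H2-Eb1 was thus measured without counts for an alpha chain of I-E. H2-Eb2 had 1 to 22 counts per library and failed the filter. H2-DMb2, a copy of the DM beta chain, had 5, 20 and 8 counts at 30 days, 14, 7 and 23 at 60 days, and 19, 56 and 11 at 90 days. H2-Oa and H2-Ob form H2-O, which restrains H2-DM, mainly in B cells. H2-Oa had 4, 9 and 10 counts, then 6, 12 and 8, then 25, 32 and 9. H2-Ob had 4, 12 and 16 counts, then 11, 14 and 7, then 22, 56 and 11. In all 4 relatives with counts 90-day sample 2 was highest. Of the 3 tested, 0 were called by edgeR in any contrast, with an unadjusted p under 0.05 in 1 at 90 against 60 days. Their log2 fold changes at 90 against 30 days were 0.63 ± 0.60 for H2-DMb2, 0.76 ± 0.56 for H2-Oa and 0.72 ± 0.57 for H2-Ob (SE).

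The factors that bind the X and Y boxes had small differences between times. Of 7 such genes listed, 7 were tested and 0 called by edgeR, with an unadjusted p under 0.05 in 1 at 60 against 30 days and in 0 in the other contrasts. Their median log2 fold changes were 0.06, -0.04 and 0.02 at 60 against 30, 90 against 60 and 90 against 30 days. Rfx5, a subunit of the X box factor RFX, measured 11.8, 8.85 and 11.1 CPM at 30 days, 8.71, 7.68 and 8.0 CPM at 60 days, and 8.45, 8.31 and 9.73 CPM at 90 days. Its 60-day values all lay below the 30-day values (-0.37 ± 0.16 on the log2 scale; edgeR adjusted p = 0.337). Nfya, a subunit of the Y box factor NF-Y, measured 14.0, 20.4 and 21.0 CPM, then 22.1, 21.7 and 23.0 CPM, then 22.9, 22.8 and 19.0 CPM. In 30-day sample 1 Nfya was at its lowest, as the members were, but in 90-day sample 2 it was not at its highest.

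The route from interferon gamma to Ciita gave 0 calls among 11 tested of 12 listed, with an unadjusted p under 0.05 in 1, 3 and 2 genes in the same contrasts. Medians were -0.02, 0.25 and 0.22. Ifng itself had 0, 2 and 1 counts at 30 days, 0, 4 and 0 at 60 days, and 0, 1 and 0 at 90 days, too few to test. Irf8, a transcription factor of myeloid and B cells, measured 10.8, 12.8 and 13.4 CPM at 30 days, 14.0, 12.4 and 13.2 CPM at 60 days, and 15, 19.0 and 17.6 CPM at 90 days. Its 90-day values were all above the rest, 0.47 ± 0.14 above 30 days on the log2 scale (edgeR adjusted p = 0.0661), and DESeq2 called it, with 6.17% of the genes it gave an adjusted p.

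Genes that cut or load antigen in the endosome gave 0 calls among 12 tested, with medians of 0.08, 0.02 and 0.13 and an unadjusted p under 0.05 in 1, 2 and 2. Cst3, which inhibits cathepsins, measured 47.7, 55.5 and 64.8 CPM at 30 days, 63.8, 54.1 and 49.7 CPM at 60 days, and 60.3, 89.6 and 66.2 CPM at 90 days. Like the members it was highest in 90-day sample 2 and lowest in 30-day sample 1. Ifi30, a lysosomal thiol reductase, had 0.29 ± 0.14 for 90 against 30 days on the log2 scale (edgeR adjusted p = 0.283), and its highest value was in 60-day sample 2 (35.4 CPM).

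The costimulation list holds genes of the T cell signal beside class II, and also Cd274 (PD-L1) and Pdcd1lg2 (PD-L2), which restrain T cells. It gave 0 calls among 6 tested of 7 listed. Medians were 0.21, 0.36 and 0.58, with an unadjusted p under 0.05 in 0, 0 and 2. Cd83, which keeps class II at the surface, measured 2.20, 2.20 and 3.43 CPM at 30 days, 3.67, 3.89 and 2.67 CPM at 60 days, and 3.00, 5.60 and 5.22 CPM at 90 days. For 90 against 30 days Cd83 had 0.81 ± 0.29 on the log2 scale (edgeR adjusted p = 0.140). Cd40 was near the floor at 30 days, with 3, 1 and 8 counts, and its difference of 1.81 ± 0.73 on the log2 scale (edgeR adjusted p = 0.204) rests on them. Over the 39 genes of the 5 lists that were tested, 0 were called by edgeR in the 3 pairwise contrasts or for any difference. Besides the DESeq2 call of Irf8, the fit without a filter called Ctss at 90 against 60 days, Cst3 and Irf8 at 90 against 30 days, and Cst3 and Ctss for any difference.

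**Figure D4:**
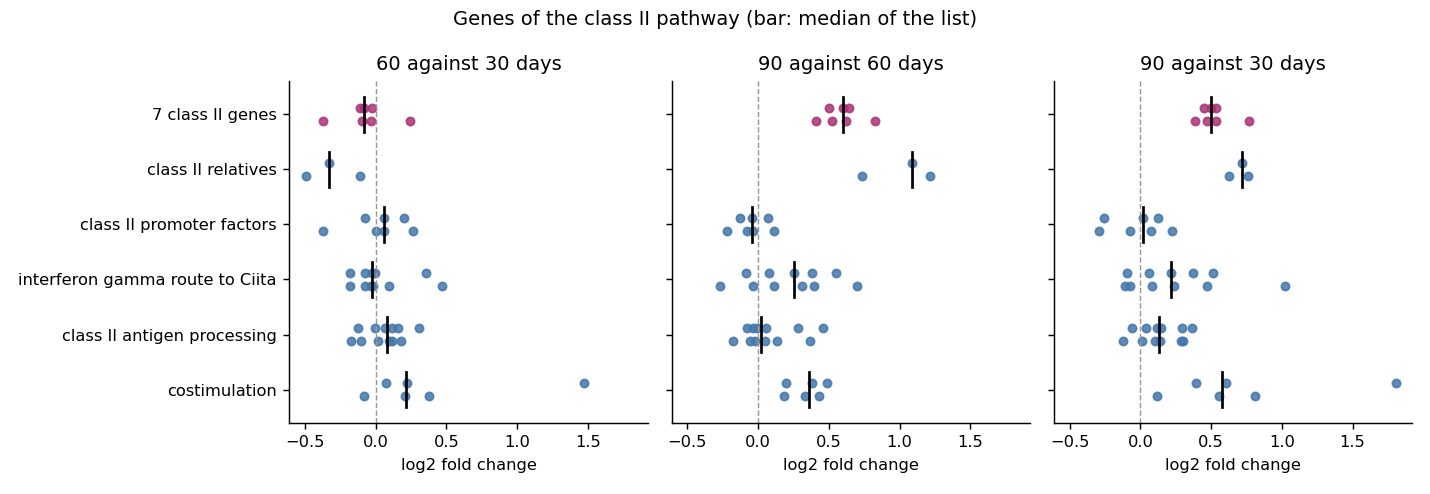
Log2 fold changes in the 3 pairwise contrasts for the 7 class II genes and 5 lists around them; each point is a gene, the bar is the median of the list and the dashed line is 0. At 90 against 60 days the 7 class II genes have a median of 0.60, the promoter factors -0.04 and the antigen processing genes 0.02.

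Class II mRNA in a gland lysate can come from several cell types. In bulk samples fewer cells of a type and less RNA per cell cannot be told apart. Markers of those cells were therefore summed per library and set beside the members. The members summed to 417, 632 and 698 CPM at 30 days, 562, 549 and 564 CPM at 60 days, and 638, 1122 and 708 CPM at 90 days.

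The 15 macrophage markers summed to 215, 322 and 390 CPM, then 294, 269 and 295 CPM, then 295, 482 and 324 CPM, with the same lowest and highest libraries as the members. The 10 markers of all leukocytes ran from 86.6 CPM in 30-day sample 1 to 182 CPM in 90-day sample 2. The sum of the members spanned 2.69-fold over the libraries, while its ratio to the macrophage sum spanned 1.30-fold and its ratio to the leukocyte sum 1.28-fold. The ratio to the macrophage sum was 1.79 to 1.96 at 30 days, 1.91 to 2.04 at 60 days and 2.16 to 2.33 at 90 days, so its 90-day values lay above the others. The ratio to the leukocyte sum was 4.82 to 5.11, 5.17 to 5.95 and 5.43 to 6.15, with overlap between 60 and 90 days. The ratio to the sum of 14 T and NK cell markers was 70.0 to 82.0, 60.2 to 78.0 and 49.4 to 58.5, so its 90-day values lay below the others. These ratios were formed with the values in view and were not tested. Of the macrophage markers 0 of 15 and of the leukocyte markers 0 of 10 were called by edgeR in the pairwise contrasts. An unadjusted p under 0.05 was found in 1, 1 and 2 macrophage markers and in 0, 6 and 1 leukocyte markers. In the same contrasts the median log2 fold changes were -0.11, 0.23 and 0.24 over the macrophage markers. Over the leukocyte markers they were -0.18, 0.56 and 0.36. At 90 against 30 days 12 of the 15 macrophage markers and 10 of the 10 leukocyte markers were positive.

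The 11 dendritic cell markers summed to values from 56.0 CPM in 30-day sample 1 to 75.8 CPM in 30-day sample 3, and the ratio of the members to them spanned 2.01-fold. Most counts of that list were of Sirpa, which macrophages also carry. At 90 against 60 days 10 of the 11 genes had positive log2 fold changes, with a median of 0.48 over the list. Sirpa was the exception, at -0.14 ± 0.11 (SE). Without Sirpa, an exclusion made after the values were seen, the other 10 ran from 14.9 CPM in 30-day sample 1 to 31.9 CPM in 90-day sample 2, the libraries at the ends for the members too. That is a 2.14-fold range, and the ratio of the members to these 10 spanned 1.49-fold. Itgax, which encodes CD11c, measured 6.73, 12.9 and 13.5 CPM at 30 days, 9.23, 11.9 and 12.3 CPM at 60 days, and 11.1, 15.3 and 14.2 CPM at 90 days. Of the dendritic cell markers 0 of 11 were called by edgeR, with an unadjusted p under 0.05 in 0, 1 and 2.

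The sum of the B cell genes was highest in 90-day sample 2. Cd79a, a part of the B cell receptor, had 68 counts there and 0 to 4 in each other library. Ms4a1, which encodes CD20, had 39 there and at most 3 elsewhere. Not every listed B cell gene did so. Bank1 was highest in 90-day sample 1, with 24 counts against 18 in 90-day sample 2, and Fcer2a had 5 counts in each. The 10 B cell markers summed to 9.85 CPM in 90-day sample 2 and to 0.604 to 1.95 CPM in the others, and 8 of the 10 failed the filter. T and NK cell markers summed to 22.7 CPM in that library and to 5.38 to 13.9 CPM in the others, and of the 10 tested 0 were called in the pairwise contrasts and 1, Cd3e, for any difference (edgeR). An unadjusted p under 0.05 was found in 0, 5 and 4 of these 10, and their medians were 0.06, 1.42 and 0.83. Cd3e measured 0.539, 1.06 and 1.15 CPM at 90 days and at most 0.271 CPM before. The sum of the genes listed for lymph node and lymphoid stroma was also highest in 90-day sample 2, at 4.84 CPM, with 0.708 to 2.11 CPM elsewhere. Of that sum 3.74 CPM was Ltb, which had 109 counts there and 7 to 41 elsewhere. Cxcl13 had 27 counts there and at most 6 elsewhere. Madcam1 was highest in 30-day sample 2 (3 counts) and Tnfrsf13c in 60-day sample 2 (2 counts). Ccl21a and Chst4 had 0 counts in 9 of 9 libraries. Without 90-day sample 2 the members' median log2 fold change at 90 against 60 days was 0.29, as given above, beside 0.60 with all libraries. The values were positive in 7 of 7. The part of B cells, or of any other cell type, in the class II values of that library was not tested.

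**Figure D5:**
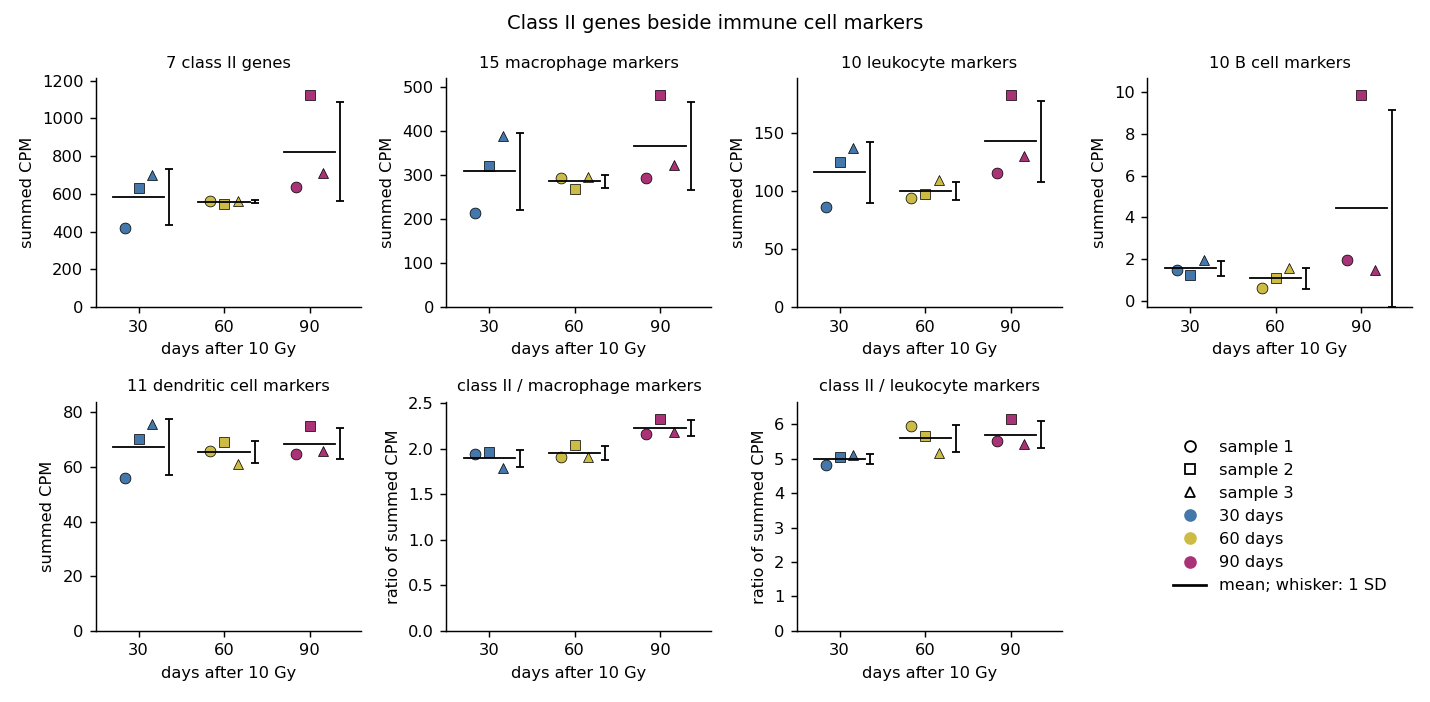
Summed CPM of the 7 class II genes and of 4 marker lists in each library, and the ratio of the class II sum to the macrophage and leukocyte sums, against days after 10 Gy; symbols are samples 1, 2 and 3, bars are means and whiskers 1 SD. The class II and macrophage sums share their lowest and highest libraries, and the ratio to macrophage markers is 2.16 to 2.33 at 90 days and at most 2.04 before. The ratio to leukocyte markers overlaps between 60 and 90 days.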

How the data were processed

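The authors deposited raw read counts per Ensembl gene. The submitters' processing notes name fastp, STAR, featureCounts and mm10, without versions or roles; annotation, settings and use of strand are not given in the sources used here. Multi-mapped and overlapping reads can therefore be lost or shared in ways not known here. Columns were matched to samples by day and number, and another 3 columns, which could be matched to none of the samples, were left out. Positions are from GENCODE M21 (GRCm38), joined by gene identifier.

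Genes were filtered with filterByExpr (minimum count 10) in edgeR 4.0.16 under R 4.3.3 and libraries scaled with TMM. All 9 libraries were fitted with a term for time point, and contrasts were tested by the robust quasi-likelihood F test with Benjamini-Hochberg adjustment over 15224 genes and a threshold of 0.05. The scripts were tested on simulated data. Log2 CPM for correlations used a prior count of 2. Reads were amplified and carry no molecular identifiers, so floors of 3 counts cover counting error only. Alternatives were DESeq2-type (RLE) size factors, library totals alone, DESeq2 1.42.0, limma-voom (limma 3.58.1), no filter, at least 10 counts in every sample, the 6 samples of a contrast alone, each sample left out and a replicate block. Figures used matplotlib 3.10.9.

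The members, lists, tests and naming rule were chosen with earlier results of these data known. All members are named, as are all relatives with counts; of each pathway list, genes called in a contrast or otherwise the 2 with the smallest p for any difference (1 of these is not reported here); and the 10 genes most like the members. Genes named from marker lists were chosen after their values were seen.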

Additional observations from a re-analysis of the deposited data

How the results depend on the processing

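The count of members called was 0 in all 18 alternatives at 60 against 30 days, in 17 of 18 at 90 against 60 days, in 17 of 18 at 90 against 30 days and in 15 of 17 for any difference. With no filter on low counts 3 members were called at 90 against 60 days, 3 at 90 against 30 days and 3 for any difference, and DESeq2 called 1 for any difference; the cause was not tested. The calls over all genes went from 238, 39, 544 and 501 to 459, 354, 1045 and 1194 with no filter. They were 90, 28, 440 and 277 with library totals alone, and 376, 150, 867 and 847 with DESeq2. Of the pathway genes, with no filter 1 (Ctss) was called at 90 against 60 days, 2 (Cst3 and Irf8) at 90 against 30 days and 2 (Cst3 and Ctss) for any difference, and DESeq2 called 1 (Irf8) at 90 against 30 days. With samples left out singly, the count of pathway genes ran from 0 to 2 at 90 against 30 days (1 without 30-day sample 3, and Cd83 and Irf8 without 90-day sample 1) and from 0 to 1 for any difference (Ctss without 90-day sample 1).

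Directions at 90 against 60 and 90 against 30 days held for all 7 members in every alternative but the one that left out 30-day sample 1 and 90-day sample 2 together, given below. At 60 against 30 days, where values are near 0, signs turned. With 1 sample left out the log2 fold changes there ran from -0.27 to 0.0025 for H2-Aa, -0.28 to 0.12 for H2-Ab1, -0.30 to 0.062 for H2-Eb1, -0.22 to 0.12 for Cd74, -0.27 to 0.16 for H2-DMa and -0.030 to 0.51 for H2-DMb1. With limma-voom H2-DMa had 0.0095. Without both 30-day sample 1 and 90-day sample 2, H2-DMb1 had -0.031 at 60 against 30 days, and at 90 against 30 days H2-DMa had -0.11 and Ciita -0.11.

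The sample number as a replicate block gave 0 members called in every contrast, with log2 fold changes of 0.0013 for Cd74 and 0.031 for H2-DMa at 60 against 30 days. Its lowest adjusted p over members was 0.144 at 90 against 60 days and 0.0798 at 90 against 30 days. It gave 270, 92, 717 and 609 calls over all genes. The labels do not say whether equal numbers mark matched samples. Libraries of the same number correlated in their deviations from group means at -0.060 to 0.191, over 0.1 in 1 of 9 pairs. Libraries of different numbers correlated at -0.210 to 0.189, over 0.1 in 1 of 18 pairs. With so few samples in a group, these correlations cannot decide whether the numbers pair the samples. Depth limits H2-DMa, H2-DMb1, Ciita and the relatives most.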
